A study of Mus musculus with 4 samples.

Results

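The genes described here make, link and carry secreted antibody. They are the immunoglobulin heavy-chain genes Igha (IgA), Ighm (IgM), Ighg3 (IgG3) and Ighd (IgD), the joining chain Jchain, the epithelial immunoglobulin transporter Pigr and the mucus protein Fcgbp. All probe sets that the platform's annotation gives to 1 of these 7 genes alone were taken, which made 31 of the 12422 probe sets tested, for 7 of the 8251 genes named by at least 1 single-gene probe set. A further 3 probe sets are annotated to a heavy-chain member together with other genes and are given apart. The animals were 4 mice of strain C57Bl/6J, wild type at Nkx3.1 (+/+) and aged 15 months, and total RNA was taken from the seminal vesicle of each. Each RNA was hybridised to its own Affymetrix Mu74AV2 GeneChip, and the 4 arrays form a single group, so genotypes, ages and tissues were not compared. Tissue was taken whole, and litter, cage and hybridisation batch are not stated. In whole tissue, fewer cells of a type and less RNA per cell cannot be told apart.

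IgA and IgM leave the body through epithelia. Plasma cells in the connective tissue under an epithelium secrete them as polymers held together by the J chain. The polymeric immunoglobulin receptor, the product of Pigr, binds such polymers at the base of the epithelial cell, carries them across and is cleaved at the lumen, where its outer part stays on the antibody as secretory component. Fcgbp encodes a large mucin-associated protein of mucus, named for its binding to the Fc part of IgG. Heavy chains and J chain are genes of B lineage cells, whereas Pigr and Fcgbp are genes of epithelia.

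The tissue carried its own markers. Svs2, Svs4 and Svs5, which encode proteins of the seminal vesicle secretion, had log2 values of 12.53 ± 0.10, 12.99 ± 0.03 and 13.09 ± 0.06 (SD, n = 4 mice), and Svs6 had 10.68 ± 0.21. The keratin genes of luminal epithelium Krt8, Krt18 and Krt19 had 8.50 ± 0.09, 8.17 ± 0.19 and 8.08 ± 0.38. Array medians lay between 4.95 and 4.98. Values are log2 RMA expression values, with a precision set by having 4 arrays. A probe set counted as above the background range when it exceeded a limit on all 4 arrays. The limit was the 90th percentile, on each array, over 111 probe sets of 92 genes typical of organs other than this gland. That limit was 6.11, 5.87, 6.02 and 6.15 in mice 1 to 4. The members were proposed with results of these arrays known, partly for their spread between mice, so that spread is given as a description. Calls of the variance fit on members, printed without p-values, are no evidence about them.

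Of the 31 probe sets, 5 were above the background range on all 4 arrays, where 24.7% of all probe sets were. They were 1 of 3 for Igha, 2 of 16 for Ighm, the only one for Pigr and 1 of 2 for Fcgbp. The other 26 included all 7 for Ighg3 and the single ones for Ighd and Jchain, and 22 of them lay under the limit on every array. A low value on this array does not show that a gene was silent.

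For the IgA heavy chain, 1 probe set was above the background limit in every mouse, and it differed between them. This Igha probe set, 100583_at, read 7.005, 7.96, 7.98 and 6.34 in mice 1 to 4. Mouse 4 was close to its limit of 6.15, and with a limit at the 95th percentile the probe set was not above the range on all arrays. Mice 2 and 3 were high and nearly equal, mouse 1 was intermediate and mouse 4 was lowest. The highest value was 3.11-fold above the lowest on the linear scale, with an SD of 0.80 log2 units. The other Igha probe sets, 97009_f_at at 3.85 ± 0.26 and 161486_f_at at 3.49 ± 0.29 (SD, n = 4), were under the limit in all mice. Their suffix f marks probes that match a family of related sequences. The annotation also gives 2 probe sets made from the same source sequence as 100583_at to a variable-region gene, Ighv14-2, at 2.45 ± 0.10 and 3.68 ± 0.12. The name Igha therefore rests on the platform table alone.

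The widest difference among the member probe sets above the background range was at 93583_s_at of Ighm. Its name carries the suffix s, and whether it reads IgM alone was not tested. It read 8.51, 9.14, 8.67 and 6.57 in mice 1 to 4. Mouse 4 stood apart from the other mice, which lay between 8.51 and 9.14, and the highest value was 5.96-fold above the lowest. A second Ighm probe set above the range, 99420_at, had 6.89, 7.70, 7.87 and 6.33 in mice 1 to 4, a 2.91-fold span. It placed mouse 1 nearer to mouse 4 than to mice 2 and 3, as 100583_at of Igha did and 93583_s_at did not. Another, 100362_f_at, had 6.35, 6.64, 6.41 and 5.99, and only mouse 4 was under its array's limit.

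The other 13 Ighm probe sets were under the limit on every array, with 4-mouse means from 2.44 to 5.86. Of these, 101870_at ran the other way, with 4.85, 4.67, 5.37 and 6.03 in mice 1 to 4, and mouse 4 was highest. In all, 7 of the 16 Ighm probe sets were lowest in mouse 4 and 5 were highest there. Averaged over the 16, the spread between mice shrank to an SD of 0.14, against 1.13 for 93583_s_at.

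**Figure D1:**
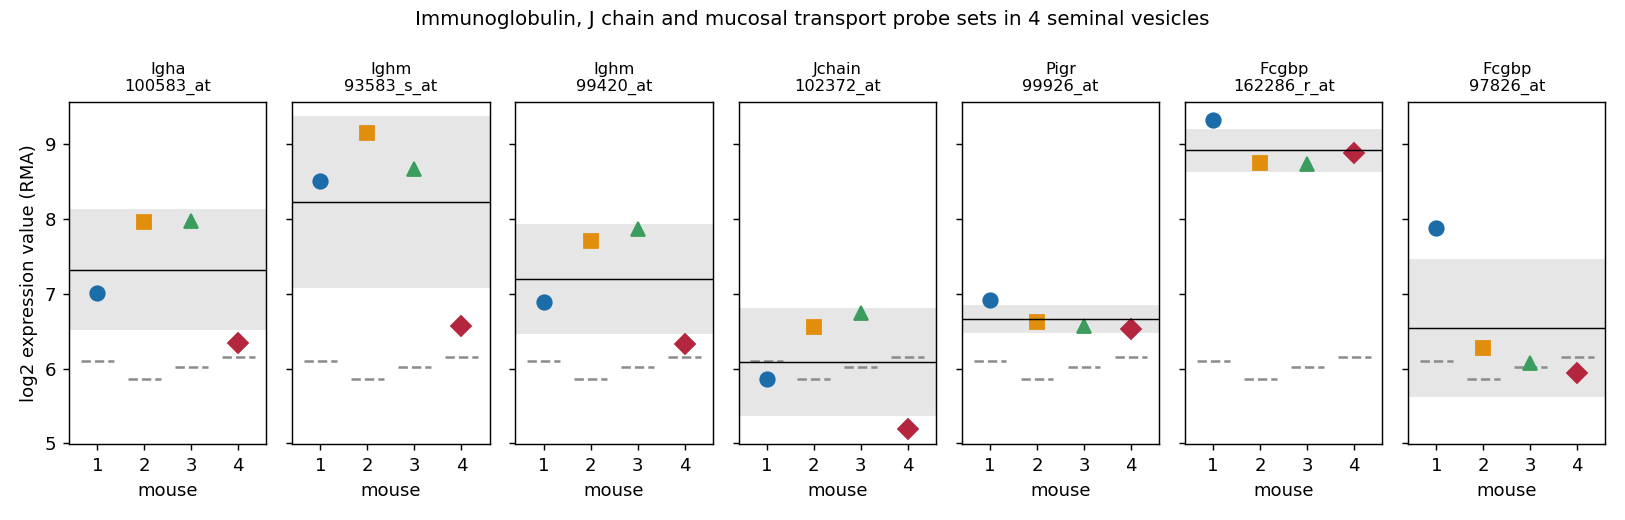
Log2 expression value (y axis) in mice 1 to 4 (x axis) for 7 probe sets of Igha, Ighm, Jchain, Pigr and Fcgbp. Points are single mice, the black line and grey band are the 4-mouse mean and SD, and dashed marks are each array's background limit. Mouse 4 is lowest in the Igha, Ighm and Jchain panels, and mouse 1 is highest in the Pigr and Fcgbp panels.

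J chain, the small protein that joins IgA or IgM units, had a single probe set, 102372_at, which read 5.86, 6.55, 6.74 and 5.20 in mice 1 to 4. Mice 2 and 3 exceeded the background limit and mice 1 and 4 did not. The order of the mice was that of Igha, and the highest value was 2.92-fold above the lowest. Because mice 1 and 4 were under the limit, the size of that fold is uncertain.

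IgG3 and IgD heavy chains gave no value above the range on all arrays. The Ighg3 probe set 102721_at had 5.77, 6.36, 5.52 and 5.33 in mice 1 to 4, so that mouse 2 alone passed its limit. The mice were spread widely in 2 family probe sets that lay under the limit on every array. The first, 97574_f_at, had 3.76, 5.61, 5.13 and 3.19, and the second, 93927_f_at, had 4.26, 5.36, 5.04 and 3.87. In both, mice 2 and 3 were high and mice 1 and 4 low. The remaining Ighg3 probe sets had means from 3.14 to 4.35 and SDs from 0.10 to 0.39. IgD, which mature naive B cells carry at their surface, had 5.51, 5.45, 5.48 and 5.45 at its single probe set 101157_at. The range of Ighd was 0.06 log2 units, under its array's limit in every mouse.

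**Figure D2:**
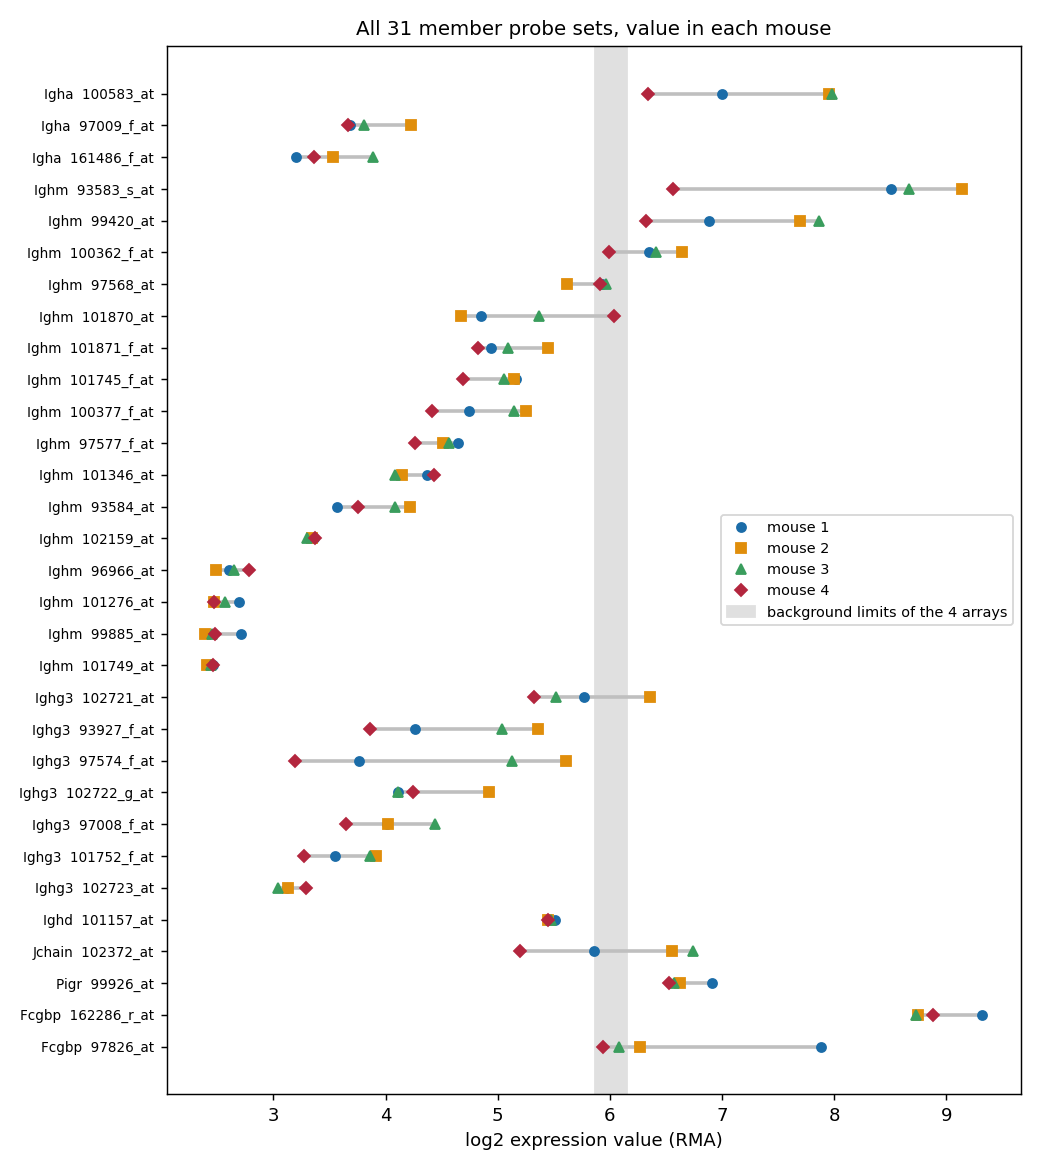
Log2 expression value (x axis) of all 31 probe sets (rows, grouped by gene and sorted by mean) in each mouse, with the span of the 4 background limits shaded. Of the 28 heavy-chain and J chain probe sets, 25 are not above the range on all 4 arrays, and wide and narrow rows occur on both sides of the shaded band.

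The transporter spanned a narrower range than the immunoglobulin probe sets above the background range. Pigr, at 99926_at, read 6.91, 6.63, 6.57 and 6.52 in mice 1 to 4, above the background limit in each. Mouse 1 was highest, the other mice lay between 6.52 and 6.63, and the highest value was 1.31-fold above the lowest. Its SD of 0.17 was still larger than that of 81.3% of all probe sets. Fcgbp at 162286_r_at had 9.32, 8.75, 8.73 and 8.88, again with mouse 1 highest and the others close together, a range of 0.59 log2 units. Its other probe set, 97826_at, had 7.88, 6.27, 6.08 and 5.94, a 3.85-fold span. Here mouse 1 stood far above the others, and mouse 4 was under the limit. The suffix r of 162286_r_at marks a probe set designed with relaxed rules, and which of the 2 better reads the transcript was not tested.

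J chain and Pigr stand for the antibody and the transport side of the pathway, so the 250 bases before their transcription start are shown, from RefSeq on GRCm38.p6. The Jchain stretch is chr5:88527898-88528147 on the minus strand, and the Pigr stretch is chr1:130826434-130826683 on the plus strand. Capitals mark the motifs found on either strand.
Jchain: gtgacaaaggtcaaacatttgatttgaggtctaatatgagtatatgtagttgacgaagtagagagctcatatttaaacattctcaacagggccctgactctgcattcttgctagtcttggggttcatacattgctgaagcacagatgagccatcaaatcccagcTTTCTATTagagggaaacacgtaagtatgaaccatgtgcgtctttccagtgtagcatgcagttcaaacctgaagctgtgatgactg
Pigr: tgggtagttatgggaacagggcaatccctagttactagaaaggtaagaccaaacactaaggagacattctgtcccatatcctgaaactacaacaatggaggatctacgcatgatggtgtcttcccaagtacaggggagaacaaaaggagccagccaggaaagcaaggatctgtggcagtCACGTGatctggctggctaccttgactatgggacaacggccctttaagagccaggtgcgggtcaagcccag
The motifs searched were the E-box CACGTG, which the factors Usf1 and Usf2 bind, AANNGAAA, a core that interferon regulatory factors bind, and the octamer ATGCAAAT of immunoglobulin promoters. In Pigr the E-box began 71 bases before the start, and a match to AANNGAAA lay just inside the transcript, from base 8. In Jchain AANNGAAA began 86 bases before the start, with no E-box. Among 32851 promoter windows of 300 bases in the RefSeq table, 7.15% held CACGTG, 23.9% held AANNGAAA and 1.74% held ATGCAAAT. The octamer was not in the windows of Jchain, Pigr or Fcgbp, and Fcgbp held none of the 3. A match is a description of letters only. Among 21 measured genes known to induce Pigr, 4 were above the range, and Usf2, at 7.14 ± 0.15, was 1 of them. Ifng, Ifngr1 and Il1b, the first 3 of that list, had 2.14 ± 0.03, 3.97 ± 0.14 and 3.25 ± 0.08 (SD, n = 4 each) and were not.

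The heavy chains and J chain were then set beside the epithelial genes over the mice. Profiles were compared by the root mean square (RMS) difference of 2 probe sets' deviations from their own 4-mouse means, a description over 4 arrays that grows with the spread of the wider probe set. It was computed for all 36 pairs of the 9 member probe sets that passed their limit on at least 1 array. Jchain passed in mice 2 and 3 alone and Ighg3 102721_at in mouse 2 alone. Their differences therefore rest partly on values under the limit. The closest were 3 immunoglobulin probe sets. Jchain and Ighm 99420_at differed by 0.05 log2 units, Igha 100583_at and Ighm 99420_at by 0.09, and Igha 100583_at and Jchain by 0.11. Pigr and Fcgbp 162286_r_at differed by 0.12. Pigr differed from Jchain by 0.63 and from Igha by 0.71. Those are close to the medians of 0.62 to Jchain and 0.69 to Igha over 3074 probe sets with a mean above the mean limit, so Pigr stood no farther from either than an ordinary probe set. Fcgbp 162286_r_at differed from Jchain by 0.75 and from Igha by 0.83. By size of difference alone the 2 sides did not form separate blocks. Ighm 100362_f_at was 0.25 from Pigr but 0.42 from Jchain and 0.49 from Igha, and Ighg3 102721_at was 0.37 from Pigr and 0.52 from Jchain. Over the 3074 the median to Pigr was 0.18, smaller than the 0.62 to Jchain. Both of these Ighm and Ighg3 probe sets were thus farther from Pigr, and nearer to Jchain, than the median probe set. Fcgbp 97826_at was 0.63 from Pigr and 0.57 from the other Fcgbp probe set. The Ighm probe set 93583_s_at was 0.49 from Igha 100583_at, 0.55 from Ighm 99420_at, 0.52 from Jchain and 0.94 from Pigr. Whether 100583_at and 99420_at read separate transcripts was not tested.

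Mouse by mouse, the deviation of Jchain minus that of Pigr was -0.48, 0.50, 0.74 and -0.76 in mice 1 to 4. For Igha minus Pigr it was -0.57, 0.67, 0.75 and -0.85. Mice 2 and 3 thus had more IgA heavy chain and J chain signal relative to the transporter than mice 1 and 4. For Ighm 93583_s_at minus Pigr it was 0.03, 0.95, 0.53 and -1.52, so mouse 1 lay near 0 and mouse 4 alone was far below. The deviation of Ighm 93583_s_at minus that of J chain was 0.52, 0.46, -0.21 and -0.76 in mice 1 to 4.

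**Figure D3:**
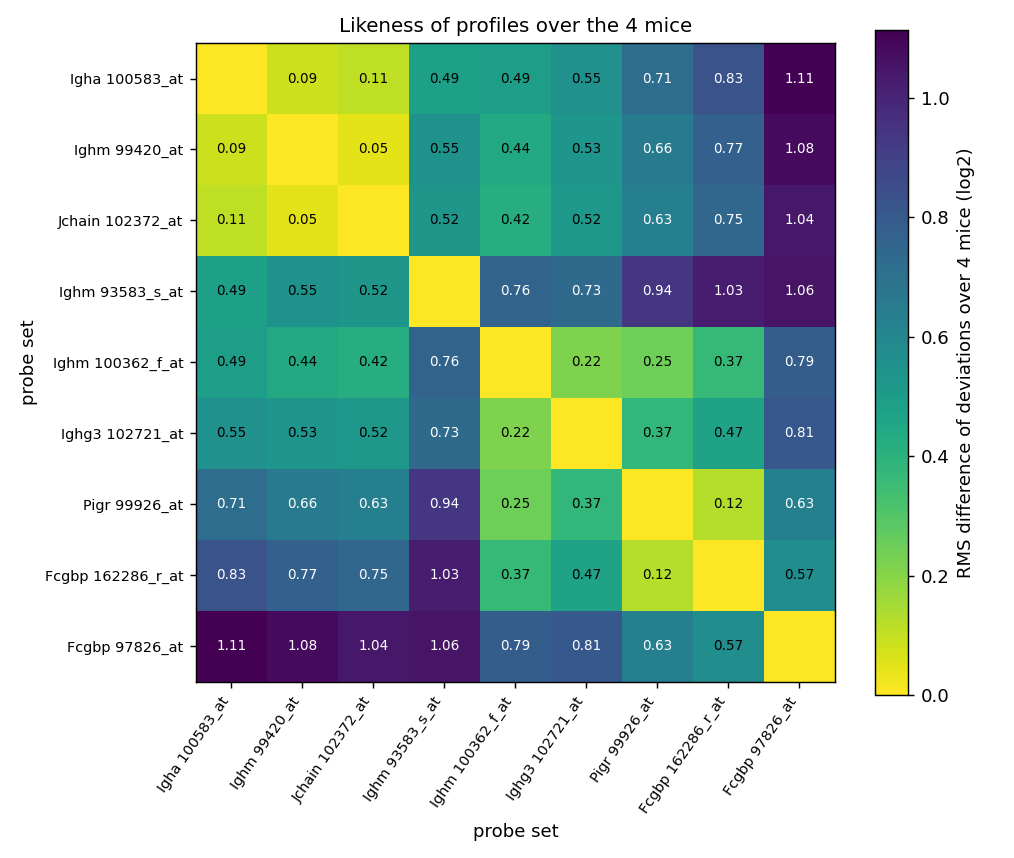
RMS difference of deviations over 4 mice (log2 units, colour and number) for each pair of the 9 member probe sets above their limit on at least 1 array, with probe sets on both axes. Igha 100583_at, Ighm 99420_at and Jchain form a block of 0.05 to 0.11, and Pigr with Fcgbp 162286_r_at a pair at 0.12. Ighm 100362_f_at is nearer to Pigr (0.25) than to Jchain (0.42). The medians over 3074 probe sets were 0.18 to Pigr and 0.62 to Jchain. Jchain was above its limit in mice 2 and 3 alone, and Ighg3 102721_at in mouse 2 alone.

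The term called variable is used where the variance over the mice exceeded the prior that limma fits (adjusted p under 0.05). By this rule 7 of the 31 were called, where 0.282% of all probe sets were. They were 100583_at of Igha, 93583_s_at and 99420_at of Ighm, 97574_f_at and 93927_f_at of Ighg3, Jchain, and 97826_at of Fcgbp. A range over 1 log2 unit was found in 9 of the 31, against 0.757% of all. Since this spread helped to choose the genes, nothing is read from these counts. Mouse 4 was lowest in 17 of the 31, against 20.3% of all probe sets. Of the 11 with the family suffix f, 10 were lowest in mouse 4, and of the 17 without a suffix 6 were. Related sequences share those probes, so they are not independent readings. Mouse 1 was highest in all 3 probe sets of Pigr and Fcgbp and in 5 of the 28 for heavy chains and J chain, against 25.8% of all. Without mouse 4, of the 7 only 97574_f_at and Fcgbp 97826_at were called, without mouse 1 Fcgbp 97826_at was not, and without mouse 2 or after a further quantile normalization 93927_f_at was not. None of the 7 was called when only probe sets above the mean background limit, or above the median signal, were fitted. Over all probe sets those fits called 0 and 1.

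**Figure D4:**
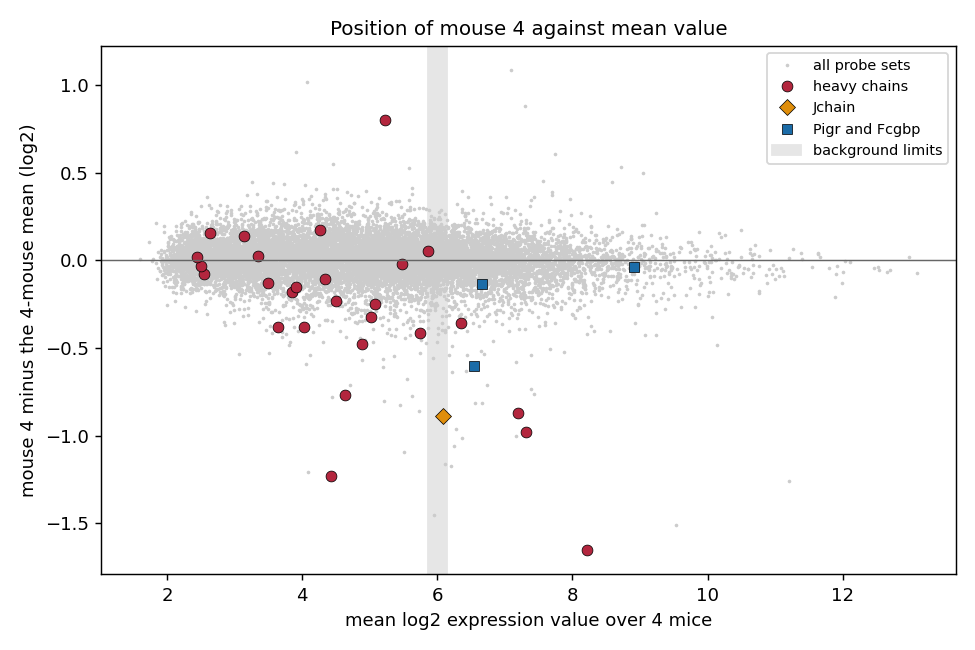
Deviation of mouse 4 from the 4-mouse mean (y axis, log2) against the mean log2 value (x axis) for all probe sets (grey) and the members (coloured by kind), with the span of the background limits shaded. Ighm 93583_s_at lies lowest of the members at -1.65, and Pigr and Fcgbp 162286_r_at lie near 0 at -0.13 and -0.04.

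Light chains gave a further reading of antibody transcript, which the choice of members did not use although their pattern was known. Of 37 probe sets for single light-chain or variable-region genes, 4 were above the background range, against 24.7% of all probe sets. In mouse 4, 18 of the 37 were lowest, against 20.3% of all, and 7 were highest. The kappa variable gene Igkv6-23 had 9.57, 10.13, 10.40 and 8.02 in mice 1 to 4 (SD 1.07, limma adjusted p = 0.00814). Igkv6-14 had 6.08, 6.54, 6.90 and 4.96 (SD 0.84, limma adjusted p = 0.0190), and Ighv1-54 had 6.30, 7.01, 6.79 and 5.35 (SD 0.74, limma adjusted p = 0.0270). These 3 and a further kappa variable gene were the 4 called among the 37, where 0.282% of all probe sets were called. Of the 4, only Igkv6-23 was above the background range on all 4 arrays. In mouse 4, Igkv6-14, Ighv1-54 and the further kappa gene (5.19) were under the limit of 6.15, so the size of their drop there is uncertain. All 4 were lowest in mouse 4, and all 4 are family probe sets with the suffix f. Related sequences share their probes, so they are not independent readings of single genes. None of the 4 was called without mouse 4, or when only probe sets above the mean background limit or above the median signal were fitted. With the non-robust prior 2 were called, Igkv6-23 and Igkv6-14. Ighv1-54 was not called without mouse 2, and the further kappa gene was not with arrays shifted to the same median. Of 8 probe sets shared by several kappa genes, all 8 were lowest in mouse 4, and the highest in mean had 11.29, 11.67, 11.92 and 9.95. The 3 probe sets that share a heavy-chain member with other genes had means of 7.09, 5.55 and 4.17, and the first of them was almost level, with an SD of 0.08.

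The single-gene probe sets whose profile lay closest to each member were sought among 3074 with a mean above the mean limit of 6.03. For Igha they were Ighv1-54 and Igkv6-14, at RMS differences of 0.17 and 0.21, then the further kappa gene at 0.26. For Jchain they were Igkv6-14 and Ighv1-54, both at 0.18, and the same kappa gene at 0.25. For Ighm 93583_s_at they were Igkv6-23 at 0.30, the further kappa gene at 0.36 and Ighv1-54 at 0.39. All of these light-chain and variable-region probe sets carry the family suffix f. The median over the 3074 was 0.69 for Igha, 0.62 for Jchain and 0.99 for Ighm. For Pigr the closest were Tbx2, Marveld1 and Ica1 at 0.02, 0.03 and 0.03, but 1955 of the 3074 lay within 0.2 of it, so this nearness is common. For Fcgbp 162286_r_at they were Col4a2 (0.04), Actg2 (0.04) and Ganab (0.05), with 516 within 0.2. Actg2, the smooth muscle gamma actin gene, had 10.55 in mouse 1 against 10.03, 9.91 and 10.18, and Col4a2, a basement membrane collagen gene, had 6.91 against 6.41, 6.42 and 6.56.

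The cells that make antibody were looked for through other markers. Of B cell genes, Cd79a and Cd79b, the signalling chains of the B cell receptor, had 6.01 ± 0.16 and 4.98 ± 0.10 (SD, n = 4), Ms4a1 (CD20) had 6.12 ± 0.08 and the adaptor Blnk 7.15 ± 0.23. A second Blnk probe set had 6.48, 6.95, 6.64 and 6.27 in mice 1 to 4 (SD 0.29), and there mouse 4 was lowest; it is named after its values were seen. Of 17 measured B cell genes 3 were above the range and 0 were called by limma, with 1 at an unadjusted p under 0.05. Over all probe sets 24.7% were above the range and 5.44% had an unadjusted p under 0.05, the shares to set beside this and the following counts. The mean deviation of the 5 genes above the mean limit lay between -0.03 and 0.04 in all mice. Of 10 plasma cell genes 4 were above the range and 0 were called, with 2 at an unadjusted p under 0.05. Xbp1, the plasma cell and secretory-stress factor, had 8.13 ± 0.26, the endoplasmic reticulum gene Fkbp11 7.13 ± 0.36, and the plasma cell factors Prdm1 and Irf4 3.48 ± 0.06 and 3.80 ± 0.08. The mean deviation of the 4 above the mean limit was 0.00, 0.02, 0.13 and -0.15 in mice 1 to 4, which ranked the mice as Jchain did. The genes behind that mean did not share this order. Of the 4, 1 was lowest in mouse 4 and 2 were highest in mouse 3, and Xbp1 was highest in mouse 2 and lowest in mouse 1. A secretory epithelium also uses Xbp1 and Fkbp11.

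The means of the MHC class II and macrophage lists ranked the mice in that order too. For MHC class II and antigen presentation, the mean deviation over 7 genes was -0.14, 0.16, 0.24 and -0.27 in mice 1 to 4, with 6 of the 7 lowest in mouse 4 and 6 of the 7 highest in mouse 3. Cd74, the invariant chain, had 9.08, 9.47, 9.58 and 8.81, H2-Aa had 7.90, 8.25, 8.29 and 7.70, and H2-Ab1 had 7.08, 7.26, 7.53 and 6.86. None of the 11 measured genes was called by limma, with 5 at an unadjusted p under 0.05. In the macrophage list the 4 genes above the mean limit had -0.01, 0.01, 0.23 and -0.23, while Cd68 (4.83 ± 0.11), Adgre1 (4.88 ± 0.16) and Csf1r (5.39 ± 0.12) were not above the range. C1qa, C1qb and C1qc, all lowest in mouse 4 and highest in mouse 3, carried that mean. The other gene in it, Cd14 (6.64 ± 0.04), was highest in mouse 4. C1qc had mouse 1 (7.68) above mouse 2 (7.59). C1qb had the largest spread of that list, at 6.21 ± 0.36 (SD, n = 4; limma adjusted p = 0.474). T and NK cell genes lay between -0.06 and 0.04, with Cd3e at 6.18 ± 0.14, Thy1 at 7.004 ± 0.20, and Cd3g and Cd3d at 3.21 ± 0.16 and 2.93 ± 0.04. In a list for lymphoid tissue, which was not of stroma genes alone, 0 of 7 genes were above the range. Cxcl13 was at 3.11 ± 0.16, Ltb at 6.06 ± 0.13 and Lta at 5.99 ± 0.11. The part of antigen-presenting cells in the heavy-chain profile was not tested.

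**Figure D5:**
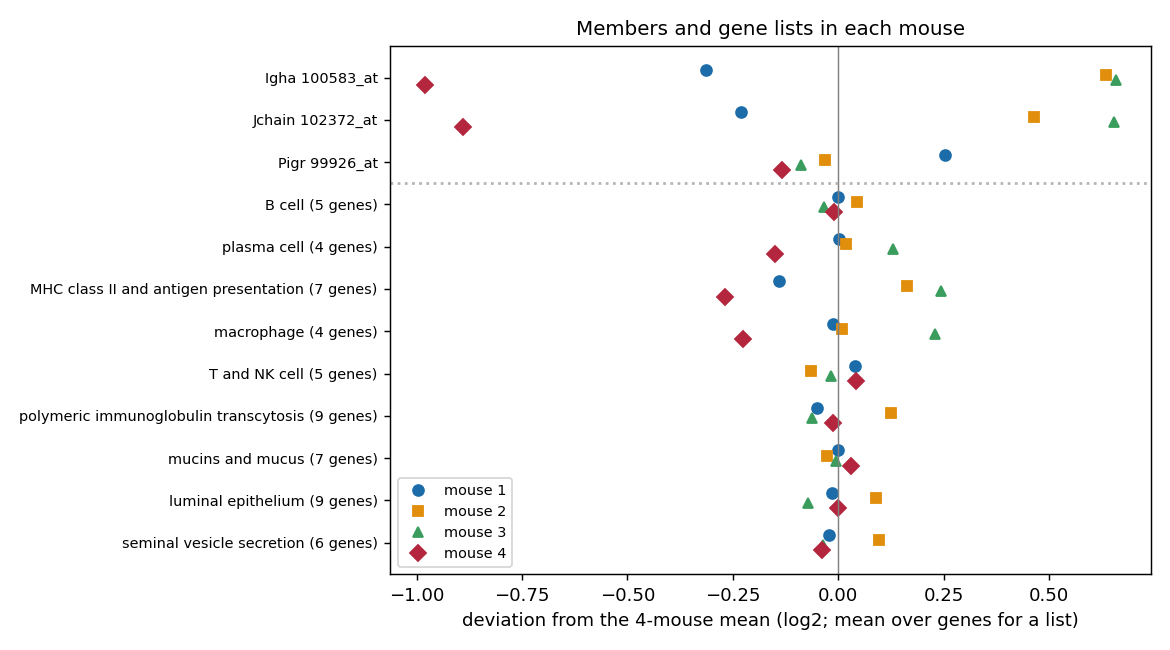
Deviation from the 4-mouse mean (x axis, log2) in each mouse for Igha, Jchain and Pigr and, below the dotted line, the mean deviation of gene lists over their genes above the mean limit (number in brackets). The MHC class II list spans -0.27 to 0.24 with the mice in the order of Jchain. The means of the plasma cell and macrophage lists have that order too, but of the 4 plasma cell genes only 1 is lowest in mouse 4. The macrophage mean is carried by C1qa, C1qb and C1qc, while Cd14 is highest in mouse 4. The B cell list stays between -0.03 and 0.04.

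On the epithelial side, 8 of 14 measured genes of polymeric immunoglobulin transcytosis were above the range and 0 were called by limma, with 1 at an unadjusted p under 0.05. Rab3d, a GTPase of secretory granules, had 8.01 ± 0.14, the early endosome gene Rab5a 6.43 ± 0.23 and the retromer gene Vps35 7.61 ± 0.26 (SD, n = 4 each), while Rab3b, reported to act with the receptor, had 4.82 ± 0.13. Their mean deviation over 9 genes was -0.05, 0.13, -0.06 and -0.01 in mice 1 to 4, not highest in mouse 1 as Pigr was. Of 17 genes of mucins and mucus, 6 were above the range, with Muc13 at 6.52 ± 0.04 and Galnt1, which starts mucin-type glycans, at 6.54 ± 0.13. Muc1 (6.12 ± 0.11) and Muc5ac (3.62 ± 0.13) were not. No gene of this list was called by limma, and 0 had an unadjusted p under 0.05. The luminal epithelium list had mean deviations between -0.07 and 0.09, with mouse 1 at -0.02. The 4 fibroblast and matrix genes above the mean limit had 0.11 in mouse 1 and -0.11, -0.03 and 0.03 in mice 2 to 4, among them Col1a1 (6.93 ± 0.14), Col1a2 (7.35 ± 0.12) and Fn1 (6.47 ± 0.27), while Col3a1 had 5.82 ± 0.06. The beta-actin control's 3' minus 5' difference was 1.08, 0.82, 1.02 and 0.98, highest in mouse 1 as well. The part of stroma or RNA quality in the values of Pigr and Fcgbp was not tested.

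Genes that induce Pigr, recruit plasma cells or bind antibody elsewhere were counted in the same way. Of 21 measured cytokine and factor genes that induce Pigr, 4 were above the range. Of 12 for class switching and plasma cell survival 2 were, with the retinal dehydrogenase gene Aldh1a1 at 7.28 ± 0.24, and Tgfbr1, Tgfbr2 and Cd40 at 4.29 ± 0.16, 2.59 ± 0.12 and 3.85 ± 0.09 (SD, n = 4 each). In the homing list 2 of 13 were, with the integrin gene Itgb1 at 9.39 ± 0.21, while the chemokine Ccl25, its receptor Ccr9 and the vascular addressin Madcam1 had 3.90 ± 0.14, 3.06 ± 0.05 and 6.08 ± 0.12. Of 11 Fc receptors and binders 2 were: B2m, which pairs with the neonatal Fc receptor, at 11.91 ± 0.07, and Tfrc, which can bind IgA, at 8.01 ± 0.12. The neonatal Fc receptor gene Fcgrt itself had 2.21 ± 0.06, and Fcgr1 4.70 ± 0.13. In epithelial antimicrobial defence 1 of 13 was, Slpi at 6.28 ± 0.12, and Ltf, Lcn2 and Lyz2 had 4.95 ± 0.03, 5.61 ± 0.10 and 5.52 ± 0.31. Over the 12 immune, transport and mucus lists with measured genes, 0 of 167 genes were called by limma, with 17 at an unadjusted p under 0.05 and a lowest adjusted p of 0.474. By probe set, 18 of 236 (7.63%) had an unadjusted p under 0.05, against 5.44% of all. The median SD of the 236 was 0.12, against 0.11 for all probe sets and 0.27 for the 31 members. Heavy-chain constant genes of the other IgG classes and IgE were looked for as well. Of the 5 listed, 0 had a single-gene probe set under the names searched, so none was measured.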

How the data were processed

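Each of 4 seminal vesicles was measured on its own Affymetrix Mu74AV2 GeneChip. The authors deposited 1 log2 value per probe set and array. It was computed with RMA, as the submitters' processing notes state. That method corrects for background, quantile-normalizes across arrays and combines probes into 1 value, and it can shrink differences of dim probe sets. Its version is not given in the sources used here. The scale follows from the range of the values, 1.47 to 13.2.

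After removal of 66 control probe sets, 12422 of 12488 were tested. The annotation gave 10833 a single gene, 396 several and 1193 none; of the 10833, 10817 matched RefSeq's GRCm38.p6 table by gene ID. Probe sets of several genes were not named. Mice were numbered in series order, which only names them. Arrays correlated across probe sets at 0.992 to 0.994, and at most 1 value was identical between 2 arrays.

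The variance test set each variance (3 degrees of freedom) against limma's robust prior with a trend on mean value (8.06 degrees of freedom) by an upper-tail F test, with Benjamini-Hochberg adjustment over 12422 probe sets, and was tested on simulated data. Named were every member probe set, and of each list the first 3 measured genes, any called gene and the gene of largest SD above the mean limit; also the called light-chain and variable genes and the 3 nearest profiles of 5 members. Where a gene has several probe sets, the one with the highest mean stands for it unless a called one is reported. Members and lists were chosen with earlier results of these data known. Alternatives covered scaling, the prior, dim probe sets, the background limit, the probe sets of a gene and leaving out each mouse. Tests ran in limma 3.58.1 under R 4.3.3, and figures in Python 3.11.15 with matplotlib 3.10.9. P-values measure only the spread between these samples.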

Additional observations from a re-analysis of the deposited data

Results flagged for a closer look

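Among the 31 members and 71 other named probe sets, 4 had a mouse whose gap to the nearest other mouse took up more of the range than Dixon's 95% critical value allows. Chance gives about 1 in 20, so 4 is no more than chance gives. The Ighm probe set 97568_at had 5.93, 5.62, 5.96 and 5.91 in mice 1 to 4, with mouse 2 lowest (gap share 0.846), and the Ighg3 probe set 102722_g_at had 4.11, 4.92, 4.11 and 4.24, with mouse 2 highest (gap share 0.838). On all 4 arrays both read less than the limit. Among the other genes, Col3a1 was highest in mouse 4 (gap share 0.913) and Ganab was highest in mouse 1 (gap share 0.846), at 7.42 against 6.95, 6.87 and 6.96.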

How the results depend on the processing

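Of the 31 member probe sets, 7 were called variable, where 35 of all 12422 probe sets were. With arrays shifted to the same median 4 were called, against 24 of all. A non-robust prior fit gave 3 against 15, and a prior without a trend 4 against 25. The count was 0 with only probe sets above the mean background limit, or only those above the median signal. Those fits tested 8 and 14 members and called 0 and 1 of all probe sets. Leaving out a mouse gave 2 to 8, against 17 to 44 of all, and the 2 was without mouse 4. The causes of these changes were not tested. The filters left out the called Ighg3 probe sets, which had means of 4.63 and 4.42. The other called members had means from 6.09 to 8.22, above the mean limit of 6.03, and were still tested under both filters. The fits that left out a mouse used fewer mice. Jchain, Ighm 99420_at and Ighg3 93927_f_at were not called with median-shifted arrays, the non-robust prior or no trend, and Igha 100583_at was not with the non-robust prior. The count above the background range was 5, where 24.7% of all probe sets were above. It was 11 at the 75th percentile of other-organ probe sets, against 45.1% of all. At the 95th it was 3, against 21.3% of all, and there Igha and Ighm 99420_at dropped out. With each array's median it was 11, against 47% of all. Without a mouse it was 5 to 7, against 24.8% to 25.7% of all. The count of called pathway genes was 0 in all settings run. SDs of the 7 genes changed by at most 0.02 under the 2 rescalings. Without a mouse they ranged from 0.56 to 0.94 for Igha, 0.33 (without mouse 4) to 1.37 for Ighm, 0.22 (without mouse 2) to 0.55 for Ighg3, 0.01 to 0.03 for Ighd, 0.47 (without mouse 4) to 0.84 for Jchain, 0.05 (without mouse 1) to 0.21 for Pigr and 0.08 (without mouse 1) to 0.33 for Fcgbp. With the mean of a gene's probe sets the SD was 0.40 for Igha and 0.58 for Fcgbp. No paired analysis was possible because the 4 arrays form 1 group. Signal near background limits Jchain, Ighg3 and most Ighm probe sets.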
